A study of Homo sapiens with 2 samples.

Results

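The 48 genes described here are those of the interferon response and of antigen presentation by MHC class I molecules. They were chosen by name and by no rule on their values, with earlier results of these data known. Of the 48 genes, 41 were measured among 12375 genes in all, 6 had probe sets that were too dim to be kept, and STAT2 was not analysed here. RNA was taken from A549 cells 12 h after TGF-β was added at 1 ng/ml, and from A549 cells cultured without TGF-β, the control. A549 is an established line of human lung carcinoma cells. Each condition had 1 Affymetrix expression array, so no p-value or error between cultures is given, and precision is limited by how few arrays there are. The labels do not say how many dishes went into an array, and only 1 time point was measured.

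Interferons are secreted by cells that detect viral nucleic acid. They bind receptors on the same and on neighbouring cells, and the kinases of the JAK family bound to these receptors activate STAT proteins. STAT2 then pairs with IRF9 in a complex that binds a short promoter element, the interferon-stimulated response element (ISRE), and switches on a large set of antiviral genes. MHC class I molecules carry peptides cut by the proteasome to the cell surface, where T cells inspect them, and interferons raise the expression of many parts of this machinery. TGF-β signals through other receptors, which phosphorylate Smad proteins, and is known as a cytokine that restrains immune responses. The question for these genes was whether their mRNA changed in lung epithelial cells under TGF-β.

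Motifs of the ISRE were common upstream of these genes. Promoter windows of the RefSeq annotation (GRCh38.p14) were searched in the 250 bases upstream of each start site for the ISRE core, GAAA and a second GAAA with any 2 bases between them, which reads as TTTC, 2 bases and TTTC on the other strand. Of 49 windows that belong to 37 of the 48 genes, 26 (53.1%) held it, against 3.02% of the 35116 windows of all genes. A match shows that these letters are present, not that a factor binds. The stretches below are shown because they belong to genes among the antiviral effectors, the ISG15 system, other induced genes, antigen processing and MHC class I whose signals are given in the results, and they were picked with those signals known. Each is written 5′ to 3′ along its gene, with 20 bases on each side of the outermost matches, and capitals mark the ISRE letters on either strand. ISG15 (chr1:1013364-1013419, plus strand), TAP1 (chr6:32853803-32853858, minus strand) and B2M (chr15:44711353-44711408, plus strand) each held 2 overlapping matches. IFI6 (chr1:27672256-27672368, minus strand) held 3. IFIT1 (chr10:89392487-89392549, plus strand), IFIT3 (chr10:89327821-89327904, plus strand) and IFITM3 (chr11:320866-320932, minus strand) held 2 separate matches each in the stretch shown. PARP9 (chr3:122564312-122564361, minus strand) and HLA-F (chr6:29723258-29723307, plus strand) held 1 each.
ISG15: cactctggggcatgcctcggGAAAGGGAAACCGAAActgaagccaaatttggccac
IFI6: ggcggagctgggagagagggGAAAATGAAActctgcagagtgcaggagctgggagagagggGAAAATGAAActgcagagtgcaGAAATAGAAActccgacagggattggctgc
PARP9: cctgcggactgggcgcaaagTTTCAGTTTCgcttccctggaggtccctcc
IFIT1: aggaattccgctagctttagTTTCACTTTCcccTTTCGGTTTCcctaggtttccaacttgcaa
IFIT3: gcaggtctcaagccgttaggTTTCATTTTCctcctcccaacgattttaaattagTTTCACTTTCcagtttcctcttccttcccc
IFITM3: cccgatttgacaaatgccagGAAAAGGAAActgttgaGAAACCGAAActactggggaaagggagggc
TAP1: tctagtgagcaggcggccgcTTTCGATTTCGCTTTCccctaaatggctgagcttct
B2M: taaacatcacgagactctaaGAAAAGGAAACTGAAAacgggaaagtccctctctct
HLA-F: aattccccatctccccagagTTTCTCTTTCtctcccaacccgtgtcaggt

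After 12 h with TGF-β, none of the 41 measured genes differed from the control by 2-fold in either direction. Over all 12375 genes, 3.94% were at least 2-fold higher with TGF-β and 2.96% at least 2-fold lower. These are rules of size and not tests. At 1.5-fold, none of the 41 genes was higher, where 9.16% of all genes were, and 2 were lower, IFIT1 and MX1, which is 4.88% of the 41 genes beside 9.08% of all genes. For both, the signal with TGF-β was not above background. Among the 38 genes with both signals above background none reached 1.5-fold in either direction, where 8.00% of the 11513 such genes were at least 1.5-fold higher and 6.57% at least 1.5-fold lower, and at 2-fold 2.94% and 1.35%. In all, 20 of the 41 genes had a higher signal with TGF-β and 21 a lower one, and 45.4% of all genes had a higher one. The median log2 fold change of the 41 genes was -0.03, and that of all genes was also -0.03. The median size of the difference, in either direction, was 1.14-fold for the 41 genes and 1.18-fold for all genes.

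The values are MAS5 intensities, in which Affymetrix software combines the probes of a probe set into a single number on a linear scale. A fold change is the TGF-β signal over the control signal. Probe sets whose mean signal over both arrays was under 48.7, the median of all such means, were left out, and a gene is given by its brightest kept probe set. The background level of an array is its highest signal among 27 probe sets for Bacillus subtilis transcripts, 56.6 on the TGF-β array and 45.8 on the control array. Where a signal lay under it, a fold given as "at least" has that signal raised to the background level. Such a fold describes the 2 readings and sets no limit on the difference between cultures. Signals of different probe sets are not compared with each other, since their brightness depends on the probes. As there were no replicates, a log2 fold change is set beside the spread of log2 fold changes over the 500 kept probe sets of nearest brightness. It describes how probe sets differ and says nothing of how cultures differ.

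**Figure D1:**
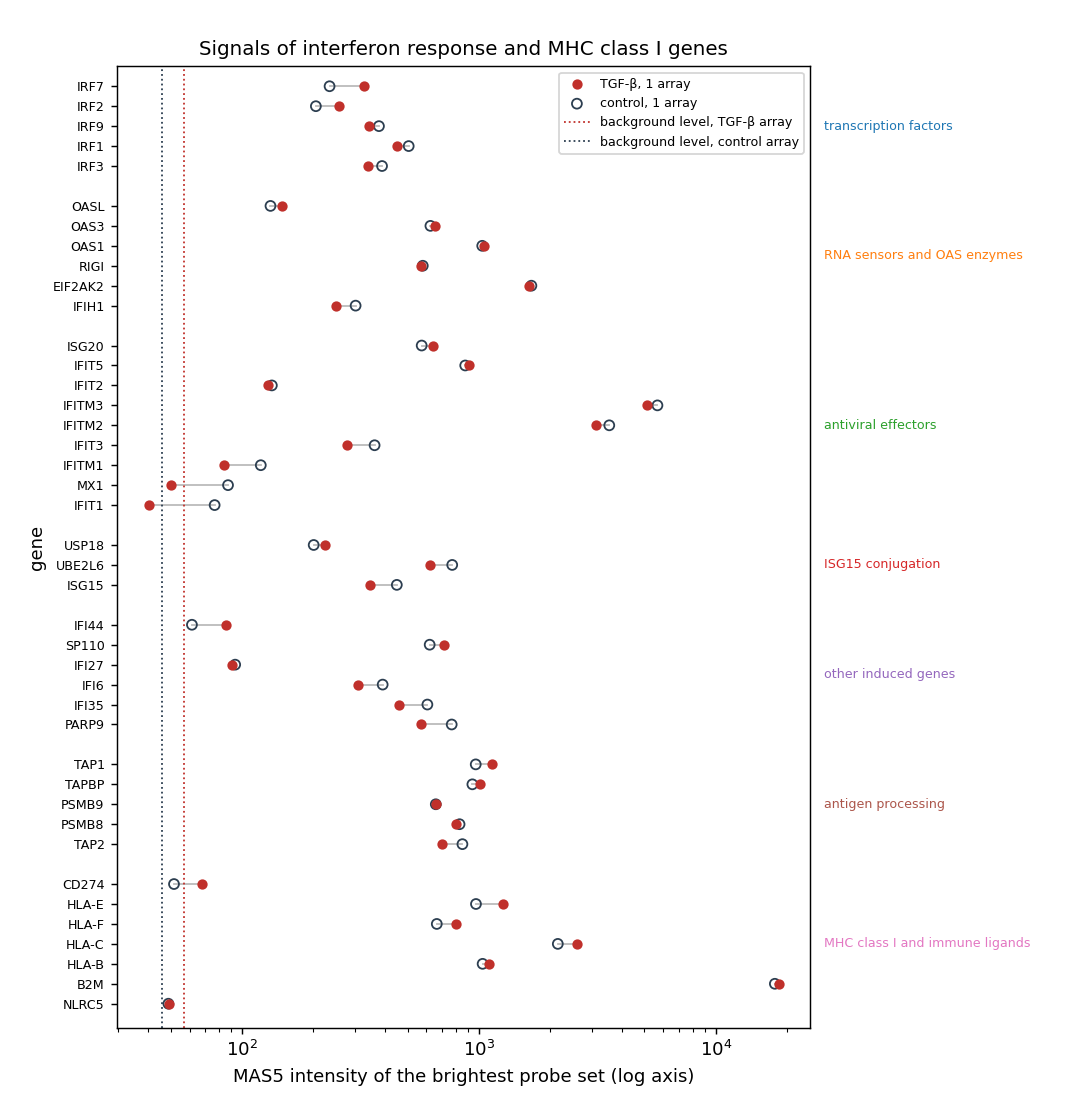
MAS5 intensity (log axis) of the brightest probe set of 41 interferon response and MHC class I genes, grouped by role, in A549 cells with TGF-β (filled) and in control cells (open), 1 array each. Dotted lines mark the background levels of 56.6 (TGF-β) and 45.8 (control), and only IFIT1, MX1 and NLRC5 have a TGF-β signal under the background of that array.

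Smad target genes differed between the same arrays. COL1A1, a chain of type I collagen, read 10680 with TGF-β and 821 in the control, and SMAD7, which limits Smad signalling, read 1620 with TGF-β and 786 in the control. From a list of 7 Smad target genes, 6 were at least 2-fold higher with TGF-β and ID2 was 3.56-fold lower. The list was chosen with earlier results of these arrays known. Its differences, here and in the figures, describe the arrays and are no independent check. The keratins KRT8 and KRT18 of simple epithelia read 19630 and 38248 with TGF-β, and 16817 and 33810 in the control. Of the 7 measured epithelial markers 2 were at least 1.5-fold lower, E-cadherin (CDH1), with 846 with TGF-β and 1952 in the control, and KRT19, with 991 with TGF-β and 1492 in the control. EPCAM, another epithelial adhesion molecule, read 1616 with TGF-β and 2176 in the control, and the median log2 fold change of these markers was -0.27. NKX2-1, a lung lineage factor, was at background on both arrays. Of 14 markers of immune cells, 11 had a probe set, 5 of these, PTPRC among them, were at background on both arrays, and the 6 measured ones summed to 519 with TGF-β and 532 in the control. Among them were differences in both directions, since CD14 read 63.0 with TGF-β and 190 in the control, and CSF1R read 80.4 with TGF-β and 20.9, under background, in the control. Of 9 fibroblast and endothelial markers, 6 were at background on both arrays, and 2 were measured. THY1 read 21.8 with TGF-β, under background, and 82.5 in the control, at least 1.46-fold lower, and PECAM1 read 65.4 with TGF-β and 56.4 in the control. The part of these markers in the results was not tested.

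**Figure D2:**
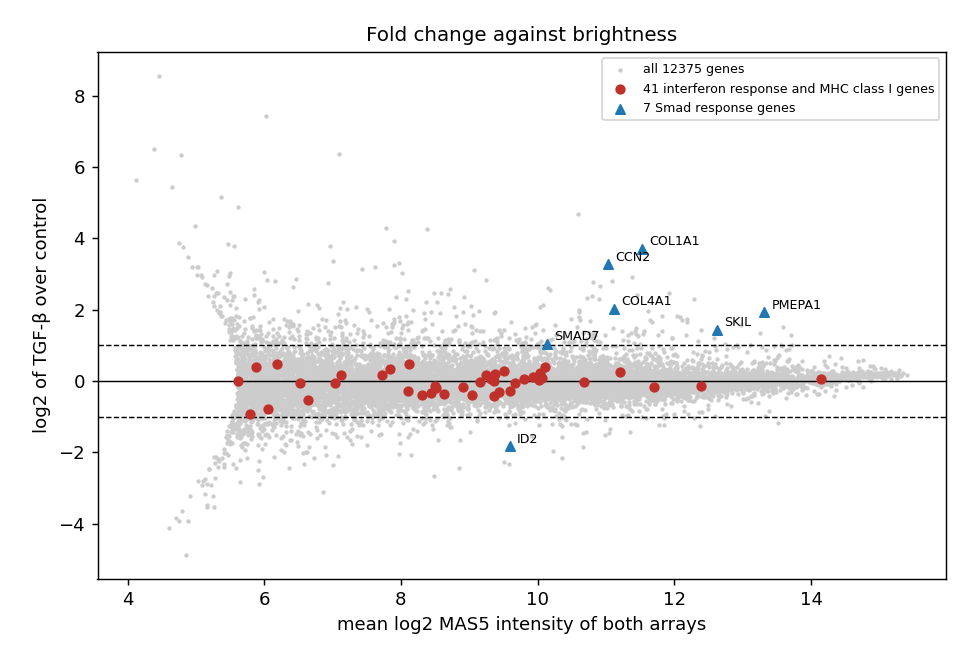
log2 of TGF-β over control (y axis) against the mean log2 MAS5 intensity of both arrays (x axis) for all 12375 genes (grey), the 41 interferon response and MHC class I genes (red) and 7 Smad response genes (blue triangles). Dashed lines mark 2-fold, within which all 41 genes lie and outside which all 7 Smad response genes lie.

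Among the transcription factors, 5 of 6 were measured and none reached 1.5-fold. IRF1, an activator of MHC class I and of interferon genes, read 452 with TGF-β and 505 in the control by its brightest probe set, and by another 366 with TGF-β and 320 in the control, so its probe sets pointed in opposite directions. IRF3, the factor through which RNA sensors start interferon transcription, read 341 with TGF-β and 390 in the control. IRF9, the DNA-binding partner of STAT2, read 345 with TGF-β and 378 in the control. These factors were thus lower by 1.10-fold to 1.14-fold by their brightest probe sets, with log2 fold changes between -0.19 and -0.13 where the spread was 0.31 to 0.32. IRF7, which amplifies the response and is itself induced by interferon, read 328 with TGF-β and 234 in the control. It was 1.40-fold higher, a log2 fold change of 0.49 where the spread was 0.41, and had 1 probe set. IRF2, which can oppose IRF1 at shared sites, read 257 with TGF-β and 205 in the control, 1.26-fold higher and within the spread.

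The sensors of viral RNA and the OAS enzymes differed little between the arrays. EIF2AK2, the kinase that stops translation on binding double-stranded RNA, read 1626 with TGF-β and 1665 in the control. RIGI, a sensor of viral RNA also called DDX58, read 567 with TGF-β and 579 in the control. OAS1 and OAS3 make the oligoadenylates that activate RNase L. OAS1 read 1048 with TGF-β and 1032 in the control, and OAS3 read 649 with TGF-β and 624 in the control. By their brightest probe sets all of these differed by at most 1.04-fold, EIF2AK2 and RIGI being lower as deposited and higher once the arrays had equal medians, and all log2 fold changes of the 6 measured genes of this role lay within the spread. Other kept probe sets differed more. One of EIF2AK2, without a mark of shared targets, read 1296 with TGF-β and 1583 in the control, 1.22-fold lower (log2 fold change -0.29, spread 0.28). One of RIGI was 1.17-fold lower and one of OAS3 1.15-fold higher, both within the spread. IFIH1, the sensor of long double-stranded RNA also called MDA5, had the largest difference by brightest probe set, 1.21-fold lower, with 248 with TGF-β and 301 in the control. OASL, a relative of the OAS enzymes, read 147 with TGF-β and 132 in the control, while a dimmer probe set read 89.4 with TGF-β and 48.9 in the control, which is 1.83-fold higher. OAS2 was not kept, and none of its 3 probe sets read over 27.4 with TGF-β or over 60.2 in the control.

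Of the 12 antiviral effectors, 9 were measured, of which 7 were lower with TGF-β and 2 were higher, where 45.4% of all genes were higher. The IFIT proteins bind viral RNA ends or cellular partners, and their genes lie close together on chromosome 10. IFIT1 read 40.3 with TGF-β and 76.5 in the control, 1.90-fold lower as measured. As measured its log2 fold change was -0.92, outside the spread of 0.71. With the TGF-β signal raised to the background level, IFIT1 was 1.35-fold lower, a log2 fold change of -0.44. The spread was taken from signals not raised, so it gives no scale for the raised fold. IFIT3 read 278 with TGF-β and 362 in the control, and by another probe set 180 with TGF-β and 197 in the control, lower by both. IFIT2, the neighbour of IFIT3, read 129 with TGF-β and 133 in the control. IFIT5 read 912 with TGF-β and 875 in the control by its brightest probe set, and 298 with TGF-β and 367 in the control by another. By brightest probe set the log2 fold change was -0.38 for IFIT3 and 0.06 for IFIT5, so signals of the IFIT genes differed in both directions.

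MX1, a GTPase that traps viral nucleocapsids, read 50.3 with TGF-β, under background, and 87.2 in the control. Its log2 fold change was -0.79 as measured, outside the spread of 0.64. With the TGF-β signal raised to the background level it was 1.54-fold lower, a log2 fold change of -0.62. The spread was taken from signals not raised, so it gives no scale for the raised fold. The IFITM proteins sit in membranes and hinder the fusion of entering viruses. IFITM3 read 5126 with TGF-β and 5671 in the control, and IFITM2 read 3133 with TGF-β and 3550 in the control. IFITM1 read 83.4 with TGF-β and 120 in the control, 1.44-fold lower. All of them were lower, IFITM1 with a log2 fold change of -0.52 at a spread of 0.49, and IFITM2 and IFITM3 by less than the spread. The names of these 3 probe sets mark them as sharing targets with other transcripts, so signals of these similar genes cannot be told apart with certainty. A further probe set, annotated to both IFITM1 and IFITM2 and left out of the gene counts, read 31.5 with TGF-β and 153 in the control. ISG20, an exonuclease that degrades viral RNA, read 642 with TGF-β and 573 in the control, and by another probe set 635 with TGF-β and 472 in the control, so it was higher by both, at 1.12-fold and 1.35-fold. MX2, RSAD2 and BST2 were not kept, and their probe sets were under the background level on both arrays.

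ISG15 is a small ubiquitin-like protein that is attached to other proteins during the interferon response. Its mRNA read 347 with TGF-β and 450 in the control, 1.30-fold lower. UBE2L6, the conjugating enzyme for ISG15, read 623 with TGF-β and 771 in the control, 1.24-fold lower. USP18, the protease that removes ISG15 and dampens receptor signalling, read 224 with TGF-β and 200.5 in the control, 1.12-fold higher. ISG15 had a log2 fold change of -0.37 at a spread of 0.35 and UBE2L6 of -0.31 at a spread of 0.29, so both stood just outside the spread, while USP18 lay within it. Each of the 3 genes had 1 probe set, that of ISG15 marked as sharing targets.

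Of 8 further interferon-induced genes 6 were measured, 4 of them lower with TGF-β and 2 higher, where 45.4% of all genes were higher. Of the 4, IFI27 was higher under scaling to equal medians or by loess. PARP9, a protein of the PARP family that works with the ubiquitin ligase DTX3L, read 569 with TGF-β and 767 in the control. A second PARP9 probe set read 265 with TGF-β and 356 in the control. The differences were 1.35-fold and 1.34-fold lower, and the log2 fold change of the brighter was -0.43 at a spread of 0.31. DTX3L, which adjoins PARP9 on the chromosome and is no gene of the list, read 1284 with TGF-β and 1605 in the control, 1.25-fold lower. IFI35 read 461 with TGF-β and 606 in the control, and IFI6, a small protein that opposes apoptosis, read 308 with TGF-β and 392 in the control. They were 1.31-fold and 1.27-fold lower, both a little outside the spread. SP110, a nuclear body protein, had 5 kept probe sets, 3 higher and 2 lower, the brightest with 710 with TGF-β and 619 in the control. IFI44 read 85.9 with TGF-β and 61.4 in the control, and IFI27 read 90.4 with TGF-β and 93.4 in the control, both within the wide spread at such low signals. IFI44L and XAF1 were not kept, with all probe sets at background on both arrays.

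**Figure D3:**
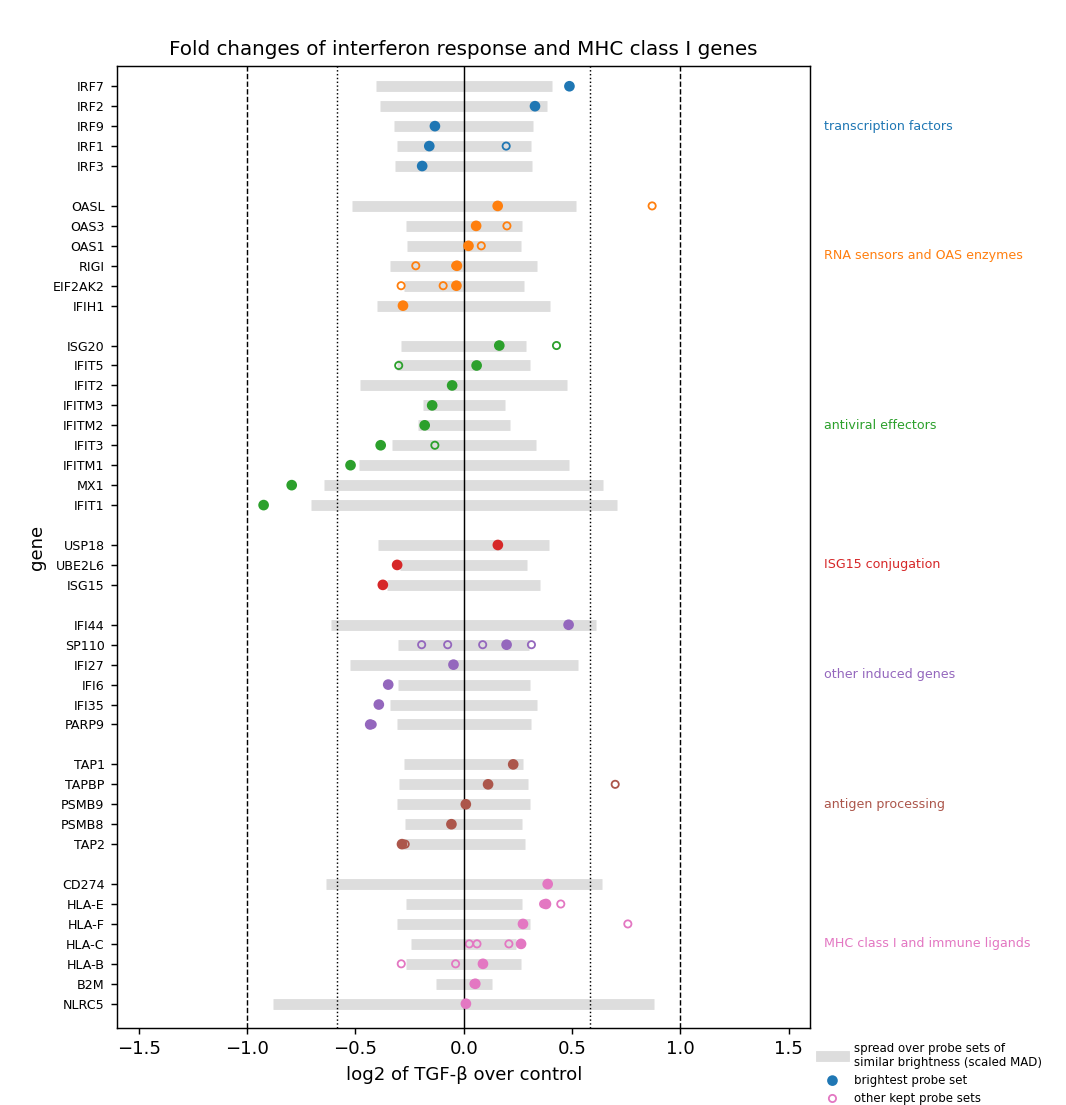
log2 of TGF-β over control for every kept probe set of the 41 genes, with the brightest probe set of a gene filled, others open, and the grey bars showing the spread over probe sets of similar brightness. Dotted lines mark 1.5-fold and dashed lines 2-fold, and no kept probe set annotated to a single gene reaches 2-fold. Probe sets annotated to several genes are not shown.

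Peptides for MHC class I are cut by the immunoproteasome, pumped into the endoplasmic reticulum by the TAP transporter and loaded with the help of tapasin. PSMB8 and PSMB9 are subunits of the immunoproteasome. PSMB8 read 796 with TGF-β and 828 in the control, and PSMB9 read 662 with TGF-β and 657 in the control, which are differences of 1.04-fold and 1.01-fold. PSMB10, a further immunoproteasome subunit that is no gene of the list, read 1264 with TGF-β and 1581 in the control, 1.25-fold lower (log2 fold change -0.32, spread 0.28). TAP1, whose gene adjoins PSMB9, read 1135 with TGF-β and 969 in the control, 1.17-fold higher. TAP2, the other chain of the transporter, was lower by both kept probe sets, with 699 with TGF-β and 851 in the control by the brighter, and 475 with TGF-β and 573 in the control by the other. The TAP1 difference lay within the spread, and that of TAP2 was just outside it, with a log2 fold change of -0.29 at a spread of 0.28. TAPBP, which encodes tapasin, read 1014 with TGF-β and 938 in the control, and by a dimmer probe set 119 with TGF-β and 73.2 in the control, 1.08-fold and 1.62-fold higher.

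Among the MHC class I genes and immune ligands, 7 of 7 had a higher signal with TGF-β by the brightest probe set, where 45.4% of all genes did. None reached 1.5-fold, and B2M turned lower after scaling by quantiles or loess. NLRC5 was under the background of the TGF-β array and turned lower with signals raised to the array median. B2M, the light chain that all class I molecules share, read 18432 with TGF-β and 17761 in the control, 1.04-fold higher. HLA-E, a class I molecule recognized by NK cell receptors, had 3 kept probe sets, all higher. They read 1264, 472 and 316 with TGF-β, and 971, 365 and 231 in the control, which is 1.30-fold, 1.29-fold and 1.36-fold higher. Of these, the last was the only one whose name does not mark shared targets. HLA-F was 1.21-fold higher by its brightest probe set, with 802 with TGF-β and 664 in the control, and 1.69-fold higher by another, with 628 with TGF-β and 371 in the control. HLA-C, a classical presenting molecule, was higher by all 4 probe sets, by 1.02-fold to 1.20-fold, the brightest reading 2586 with TGF-β and 2153 in the control. HLA-B had probe sets in both directions, reading 1102, 1045 and 454 with TGF-β, and 1036, 1073 and 554 in the control. The direction of HLA-B turned to lower by the median over its probe sets and when the most changed probe set was used. All kept probe sets of HLA-B, HLA-C and HLA-F are marked as sharing targets, so signals of these near-identical genes cannot be told apart with certainty. NLRC5, the transcriptional coactivator of class I genes, read 49.2 with TGF-β and 48.8 in the control, near background on both arrays. CD274, a ligand that restrains T cells, read 67.4 with TGF-β and 51.5 in the control, within the spread.

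Set against the spread, 3 of the 41 genes were higher by more than it, HLA-C, HLA-E and IRF7, and 10 were lower, PARP9, IFI35, IFI6, ISG15, UBE2L6, IFIT1, IFIT3, IFITM1, MX1 and TAP2. These are 7.32% and 24.4% of the 41 genes, where 17.6% of all genes were higher and 20.1% lower by the same rule. The count of lower genes stayed at 10, with 3 higher, under quantile scaling, where 19.8% of all genes were lower and 16.5% higher. By the probe set with the largest change it was 11, with 7 higher, where 26.4% of all genes were lower and 20.7% higher. Without probe sets marked as sharing targets, 7 of 26 genes were lower and 1 higher, where 20.3% of all genes were lower and 16.9% higher. With the arrays scaled to equal medians, the count of lower genes dropped to 4, with 6 higher. There, 16.4% of all genes were lower and 20.9% higher. The count was 6, with 3 higher, after scaling by loess, where 18.4% of all genes were lower and 17.7% higher. It was 8, with 3 higher, with signals raised to the background level, where 18.7% of all genes were lower and 16.9% higher. It dropped to 2, with 3 higher, when 50 was added to every signal, where 15.4% of all genes were lower and 14.6% higher. In these last 2 settings the folds held the raised signals or the added 50, and the spread did not. Smaller counts thus follow from the construction. Of the 41 genes 18 had several kept probe sets, and in 14 of these (77.8%) all pointed in a single direction, 9 higher and 5 lower, beside 55.9% of the 6072 genes with several kept probe sets. Probe sets of a gene share an array and often part of their sequence, so they are not replicates.

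Fold changes were also set beside the promoter matches. Of the 41 measured genes 20 had a match, with a median log2 fold change of -0.10. None of the 20 was at least 1.5-fold higher and 2 (10%) were lower by that size, IFIT1 and MX1. Of all genes 9.16% were higher and 9.08% lower by that size. Another 12 of the 41 had a window without a match, with a median of -0.03, and none reached 1.5-fold. The 9 without a window in the table had a median of 0.16. Among 317 other measured genes with a match, 10.7% were at least 1.5-fold higher with TGF-β and 6.31% at least 1.5-fold lower, and the median log2 fold change was -0.02. Among the 9752 genes whose windows held no match the shares were 8.47% and 8.78%, and the median was -0.04. A second motif, the GAS element TTCNNNGAA, which reads the same on both strands and through which STAT dimers act, was found in 13 of the 49 windows of these genes and in 6.57% of all windows, and it overlapped an ISRE match in 4 of the 49 and in 20 of the 35116 windows of all genes. The overlapping pairs belonged to MX1, IFI27 and BST2.

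Other genes of the pathway were read from lists of their roles. Of 21 interferon genes, 18 had a probe set, 16 of these were at background on both arrays, and IFNE, an interferon of epithelia, was the measured one, with 93.6 with TGF-β and 54.1 in the control. All 9 measured genes of interferon receptors and their kinases stayed under 1.5-fold by brightest probe set, with a median log2 fold change of 0.04. A dimmer probe set of the kinase JAK2 read 99.7 with TGF-β and 167 in the control, 1.68-fold lower. IFNGR1, the ligand-binding chain of the interferon-γ receptor, read 8146 with TGF-β and 10364 in the control. Its log2 fold change was -0.35, outside the spread of 0.17. It was lower by all 3 of its kept probe sets, the dimmest of which read 50.1 with TGF-β, under background. The kinase JAK1 read 6675 with TGF-β and 5092 in the control, and was higher by all 4 of its kept probe sets. By the brightest its log2 fold change was 0.39, outside the spread of 0.19.

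Of 14 inhibitors of JAK and STAT signalling, 2 were at least 1.5-fold higher by brightest probe set and none was lower by that size. Of all genes 9.16% were higher and 9.08% lower by that size. The median log2 fold change of the 14 was -0.03. Dimmer probe sets went both ways, with one of CISH 3.28-fold higher and one of PTPN2 1.54-fold lower. PIAS2 had one 1.94-fold lower and one 1.73-fold higher. SOCS2, which turns off cytokine and growth hormone receptors, read 1394 with TGF-β and 725 in the control by one probe set, 1.92-fold higher, and was 1.82-fold higher by the other. SOCS1, the inhibitor that binds JAK kinases in the interferon response, read 109 with TGF-β and 53.9 in the control, 2.03-fold higher by its single kept probe set and close to background in the control. Of 9 measured adaptors and kinases of nucleic acid sensing, TICAM1 was higher and TLR3 lower by that size. TICAM1, the adaptor of TLR3, read 212 with TGF-β and 34.3 in the control, at least 4.62-fold higher, as the control had no signal above background. TLR3 read 87.1 with TGF-β and 133 in the control, 1.53-fold lower, and a second probe set was 1.08-fold higher.

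Of 31 further measured genes known to be induced by interferon, 4 were at least 1.5-fold higher by brightest probe set. Another 3 were at least 1.5-fold lower and 24 were neither, with a median log2 fold change of -0.01. Of all genes 9.16% were higher and 9.08% lower by that size. SAMD9, a restriction factor of poxviruses, read 899 with TGF-β and 333 in the control, 2.69-fold higher, and was 2.49-fold higher by its second probe set. Its neighbour SAMD9L read 317 with TGF-β and 214 in the control, 1.48-fold higher, and all 3 of its kept probe sets were higher. GBP2, an interferon-induced GTPase, was 1.66-fold higher by its brightest probe set and 1.38-fold lower by another, and the helicase DDX60 was 1.57-fold higher. CASP1, which matures interleukins, read 149 with TGF-β and 233 in the control. All 4 of its kept probe sets were lower, by 1.32-fold to 2.18-fold as measured. The probe set with the 2.18-fold difference read 44.6 with TGF-β, under background, and 97.2 in the control. The 7 kept probe sets of PML disagreed, with 4 higher and 3 lower. CMPK2, which adjoins RSAD2, read 36.0 with TGF-β and 101 in the control, at least 1.78-fold lower. By brightest probe set, none of the 12 measured genes of peptide loading and of further proteasome subunits and activators, PSMB10 among them, reached 1.5-fold. CALR, a chaperone of class I molecules, read 3097 with TGF-β and 2284 in the control. That was the largest difference of the list by brightest probe set, at 1.36-fold. A dimmer probe set of ERAP1 read 98.8 with TGF-β and 64.1 in the control, 1.54-fold higher. One of PSME3 read 349 with TGF-β and 499 in the control, 1.43-fold lower.

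**Figure D4:**
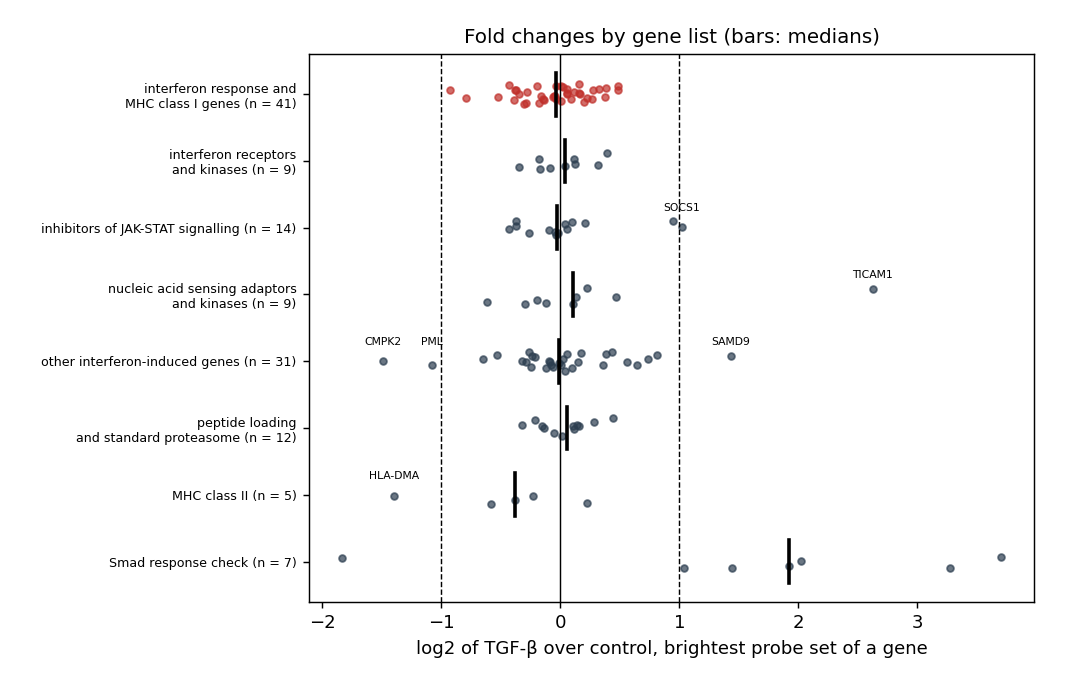
log2 of TGF-β over control of the brightest probe set of each measured gene, by gene list, with black bars at the list medians, dashed lines at 2-fold, and gene names at or past 2-fold except for the Smad response genes. The 41 interferon response and MHC class I genes (red, top row) have a median of -0.03, and the 7 Smad response genes (bottom row) a median of 1.92.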

How the data were processed

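The authors deposited 1 linear intensity for each probe set and array. MAS5 is named in the submitters' processing notes, with no version or settings. Once the lowest and highest 2% of values were set aside, the mean signal was 500 on both arrays, so they share a scaling target. A single gene symbol was listed for 41091 of 54613 probe sets (controls excluded), and those with several (1801) or none listed (11721) were left out of gene counts. Symbols were updated through the RefSeq annotation of GRCh38.p14. Fold changes, spreads (median absolute deviation over 500 probe sets, scaled as for a normal SD) and motif counts were computed in Python 3.11.15 (pandas 2.3.3, numpy 2.4.6, statsmodels 0.14.6, scipy 1.17.1). Figures used matplotlib 3.10.9. The calculation was tested on simulated data. With 1 array per condition no test was run. The genes, lists and rules were chosen with earlier results of these data known. By rule, signals were given for genes at least 1.5-fold different, for the 3 brightest of each role and for genes whose kept probe sets disagreed in direction with at least 1 past 1.5-fold. From each other list up to 3 genes past 1.5-fold in each direction were named, brightest first. All further genes were named after their values were seen. Alternatives changed the filter, the treatment of dim signals, the scaling or the choice of probe set. Counts past the spread were also chosen after seeing the data.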

Additional observations from a re-analysis of the deposited data

How the results depend on the processing

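Variation between cultures could not be assessed, and leaving out a replicate was not possible, with 1 array per condition. The median log2 fold change of the 41 genes lay between -0.05 and 0.02 under all 12 alternatives. No gene reached 2-fold except without the filter on dim signals, where 1 was higher and 3 were lower by that size, of 47 genes, beside 10.7% and 12.1% of all genes. There, 2 were at least 1.5-fold higher and 5 at least 1.5-fold lower, beside 17.1% and 19.2% of all genes. By the probe set with the largest change 3 were at least 1.5-fold higher, beside 12.9% of all genes. The 2 genes at least 1.5-fold lower became 0 when only mean signals from 349 up, the 75 percentile, were kept, 1 with signals raised to the background level and 0 with an offset of 50, where 3.90%, 7.59% and 5.31% of all genes were lower by that size. These settings bear on dim genes by their construction. Of 463 values of single genes under the alternatives, 457 moved by less than the spread at their brightness and 6 moved by more. The 6 were HLA-B, HLA-F, IFIT5, IRF1, OASL and TAPBP by the probe set with the largest change. Many values could not move, since changed filters leave a kept signal as it is. The choice of probe set cannot change a gene with 1 kept probe set. Only IFIT1 and MX1 were past 1.5-fold, with 1 probe set each, and neither changed sign. Among smaller differences, B2M, EIF2AK2, HLA-B, IFI27, IFIT5, IRF1, NLRC5 and RIGI changed sign under some alternative. Signal over background limits IFIT1, MX1 and NLRC5. No paired analysis was possible because each condition had 1 array.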

Other observations

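Of 12 genes of MHC class II presentation, whose molecules present peptides to helper T cells and are made mainly by immune cells, 5 were measured and 4 were at background on both arrays. HLA-DMA read 38.7 with TGF-β, which is at background, and 102 in the control, at least 1.80-fold lower. CIITA, the coactivator of class II genes, read 48.0 with TGF-β, also at background, and 56.1 in the control. The median log2 fold change of the 5 measured genes was -0.38. A probe set annotated to both IFITM1 and IFITM2 was left out of the gene counts. It read 31.5 with TGF-β and 153 in the control, at least 2.70-fold lower, whereas the probe sets annotated to IFITM1 alone and to IFITM2 alone were 1.44-fold and 1.13-fold lower. A probe set annotated to both RNF31 and IRF9 read 275 with TGF-β and 350 in the control, 1.27-fold lower, beside 1.10-fold lower for the probe set of IRF9 alone.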
